A study of Mus musculus with 2 samples.

Results

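The AMPA and NMDA receptor subunits are the members of 2 families of ionotropic glutamate receptors, and 9 of their genes were followed here out of 37310 annotated genes: Gria1, Gria2 and Gria4 of the AMPA family, and Grin1, Grin2a, Grin2b, Grin2c, Grin2d and Grin3a of the NMDA family. They were chosen by symbol in the gene models of the mouse build mm9. The rule itself uses no measured value, but it was set with earlier results of these data known. RNA from whole E17.5 brains had been sequenced. The BxC library came from an F1 embryo with a C57BL/6J mother and a CastEi/J father, and the CxB library from the reciprocal F1, with a CastEi/J mother and a C57BL/6J father. The labels give no sex. By the study's methods the CxB embryo was male, and the sex of the BxC embryo behind this library is not given in the sources used here. Each cross is represented by 1 library, so no difference between the crosses has a replicate check. All intervals cover counting error only and take each read as an independent draw. Reads often shared an alignment position, with 6.68 reads per position in Gria2 and 1.65 in Grin2c in BxC. The intervals may therefore be too narrow, also where they do not overlap.

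AMPA receptors carry most fast excitatory transmission in the brain and are tetramers of the Gria subunits. NMDA receptors pair obligatory Grin1 subunits with Grin2 or Grin3 subunits, and those of Grin1 and Grin2 need glutamate together with glycine or D-serine. Both families are diversified by splicing: an AMPA receptor transcript carries either the flip or the flop exon in its ligand-binding domain, and Grin1 takes or skips the N1 cassette near its amino end and the C1 and C2 cassettes at its carboxyl end. The change from Grin2b to Grin2a after birth is a known feature of forebrain maturation.

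The alternative exons are shown because the splice shares below rest on them. In transcript order flop comes before flip, each has 115 bases, and capitals mark the bases at which flip and flop of the same gene differ. Coordinates are those of mm9. In Gria1, on the plus strand of chromosome 11, flop is chr11:57123271-57123385 and flip is chr11:57124110-57124224.
Gria1 flop: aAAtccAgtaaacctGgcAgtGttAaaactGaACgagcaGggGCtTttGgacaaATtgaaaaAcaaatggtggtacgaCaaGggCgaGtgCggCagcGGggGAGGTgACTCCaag
Gria1 flip: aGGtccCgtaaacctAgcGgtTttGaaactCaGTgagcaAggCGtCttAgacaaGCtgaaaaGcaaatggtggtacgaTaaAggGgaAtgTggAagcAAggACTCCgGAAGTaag

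In Gria2, on the minus strand of chromosome 3, flop is chr3:80495242-80495356 and flip is chr3:80494326-80494440.
Gria2 flop: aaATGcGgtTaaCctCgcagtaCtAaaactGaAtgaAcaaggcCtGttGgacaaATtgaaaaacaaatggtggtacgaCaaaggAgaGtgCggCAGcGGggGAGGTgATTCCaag
Gria2 flip: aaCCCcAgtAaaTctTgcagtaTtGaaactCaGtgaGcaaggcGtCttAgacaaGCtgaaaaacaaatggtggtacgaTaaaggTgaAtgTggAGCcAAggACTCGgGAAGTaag

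In Gria4, on the minus strand of chromosome 9, flop is chr9:4432773-4432887 and flip is chr9:4427030-4427144.
Gria4 flop: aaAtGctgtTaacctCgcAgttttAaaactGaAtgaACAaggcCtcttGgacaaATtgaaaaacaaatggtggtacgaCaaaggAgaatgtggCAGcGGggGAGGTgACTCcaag
Gria4 flip: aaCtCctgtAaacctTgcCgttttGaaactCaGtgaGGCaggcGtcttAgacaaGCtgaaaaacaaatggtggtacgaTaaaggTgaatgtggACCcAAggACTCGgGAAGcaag

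Flip and flop differed at 36 bases in Gria1, 36 in Gria2 and 31 in Gria4. The same exon of different genes was closer: the flip exons of Gria2 and Gria4 differed at 9 bases and their flop exons at 7. In Grin1, on the minus strand of chromosome 2, N1 is chr2:25166863-25166925 and C1 is chr2:25149958-25150068. The cassette is in capitals between 12 bases of each neighbouring exon.
Grin1 N1: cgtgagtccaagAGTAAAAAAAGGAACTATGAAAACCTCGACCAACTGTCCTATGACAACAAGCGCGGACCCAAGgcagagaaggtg
Grin1 C1: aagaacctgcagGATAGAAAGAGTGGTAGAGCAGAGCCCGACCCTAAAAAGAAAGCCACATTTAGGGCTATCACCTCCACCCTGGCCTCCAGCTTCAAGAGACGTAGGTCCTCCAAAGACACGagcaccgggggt

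The last Grin1 exon opens at either of 2 acceptors, which lie 356 bases apart. The nearer acceptor gives the C2 end and the later acceptor the C2 prime end. Intron bases are in lower case and exon bases in capitals, over chr2:25147985-25148024 for C2 and chr2:25147629-25147668 for C2 prime.
C2 acceptor: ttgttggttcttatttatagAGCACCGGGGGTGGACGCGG
C2 prime acceptor: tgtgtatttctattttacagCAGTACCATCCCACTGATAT

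There were 128944754 aligned reads in BxC and 109719746 in CxB, all of 36 bases. Split reads, which cross a splice junction, were 6.47% of BxC and 6.20% of CxB. The plus strand took 50.1% of reads in each library. Of the reads over each member 33.0% to 46.5% lay on the strand of the gene, so reads of both strands were counted. A gene without a read could still lie at 0.0233 RPM (reads scaled to the library total) in BxC or 0.0273 in CxB. The neuron marker Tubb3 stood at 917 RPKM (reads per kb of coding sequence, scaled to the reads of the library) in BxC and 798 in CxB, the radial glia marker Fabp7 at 176 and 167, and the blood marker Hbb-b1 at 286 and 223. Of 6 markers of other organs, 1 (Acta1, skeletal muscle actin) had at least 100 reads in each library, with 465 and 321. Alb, a liver gene, had 0 and 45 reads and the keratin Krt5 had 5 and 44, while Krt14 had 65 and 58, Myl1 61 and 50, and Afp 3 and 3. Astrocyte markers summed to 46.7 RPKM in BxC and 44.7 in CxB, oligodendrocyte lineage markers to 70.5 and 77.2, and choroid plexus markers to 621 and 676, while endothelial and microglial markers summed to 22 and 21.9. Over the neuron markers the log2 ratios of CxB over BxC, from all exons, ran from -0.21 in Tubb3 to 0.13 in Dcx. Their median was 0.01. Over the radial glia markers the ratios ran from -0.02 to 0.19, with Fabp7 at 0.07. Among the blood markers they ran from -0.51 to -0.28. Their part in the values below was not tested. In bulk tissue fewer cells of a type and less RNA per cell cannot be told apart.

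Gria2 was the highest member, and Grin2a and Grin2c were far below the other members. Levels are given as RPKM over the coding bases of each gene, since the merged exons of some members include long untranslated or retained sequence. Gria2, the subunit whose edited form makes AMPA receptors nearly impermeable to calcium, stood at 54.9 (95% Poisson interval 54.1 to 55.7) in BxC and 52.5 (51.6 to 53.3) in CxB, higher than 95.6% and 95.5% of protein-coding genes. Gria1 stood at 27.1 in BxC and 26.2 in CxB. Gria4 stood at 10.6 and 9.55. Gria2 was thus 2.02 times Gria1 (1.97 to 2.07) in BxC and 2.00 times (1.95 to 2.06) in CxB.

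The X-linked AMPA subunit Gria3, which is not among the 9, stood at 9.21 RPKM in BxC and 9.12 in CxB, and sex and cross cannot be told apart in that pair. Of the summed coding RPKM of the AMPA genes with Gria3 included, Gria2 took 53.9% in both libraries, Gria1 26.7% and 26.9%, Gria4 10.4% and 9.81%, and Gria3 9.04% and 9.37%. Over all merged exons the Gria4 share was 18.1% in both libraries and that of Gria2 45.9% and 45.4%.

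Grin1, the obligatory NMDA subunit, stood at 29.8 RPKM (29.2 to 30.3) in BxC and 29.1 (28.5 to 29.7) in CxB. Grin2b, the subunit of the young forebrain, stood at 21.7 in each library, with an interval of 21.3 to 22.1 in BxC and 21.2 to 22.1 in CxB. Grin2d, the other early Grin2 subunit, stood at 12 and 12.5. Grin3a, which lowers calcium flow when it joins a receptor, stood at 8.93 and 9.08, and its paralog Grin3b at 0.232 and 0.269. Grin2c, known mainly from the cerebellum, stood at 0.781 (0.705 to 0.863) and 0.880 (0.793 to 0.974). Grin2a stood at 0.814 (0.741 to 0.892) and 0.843 (0.763 to 0.929).

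Over all coding bases the order from the highest was Gria2, Grin1, Gria1, Grin2b, Grin2d, Gria4 and Grin3a in both libraries. The intervals of neighbours in that order did not overlap in BxC, while in CxB those of Gria4 and Grin3a did. The intervals of Grin2a and Grin2c overlapped in both. Over all merged exons Grin1 moved to rank 6 in BxC and rank 5 in CxB, with 16.5 and 16.0 RPKM over its 9.70 kb of merged exons against 2.94 kb of coding bases. Grin2d stood there at 19.7 and 18.9 RPKM, so that Grin2b was 1.02 and 1.04 times Grin2d, against 1.80 and 1.73 times over coding bases. Gria4 stood there at 16.6 and 15.9 RPKM.

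**Figure D1:**
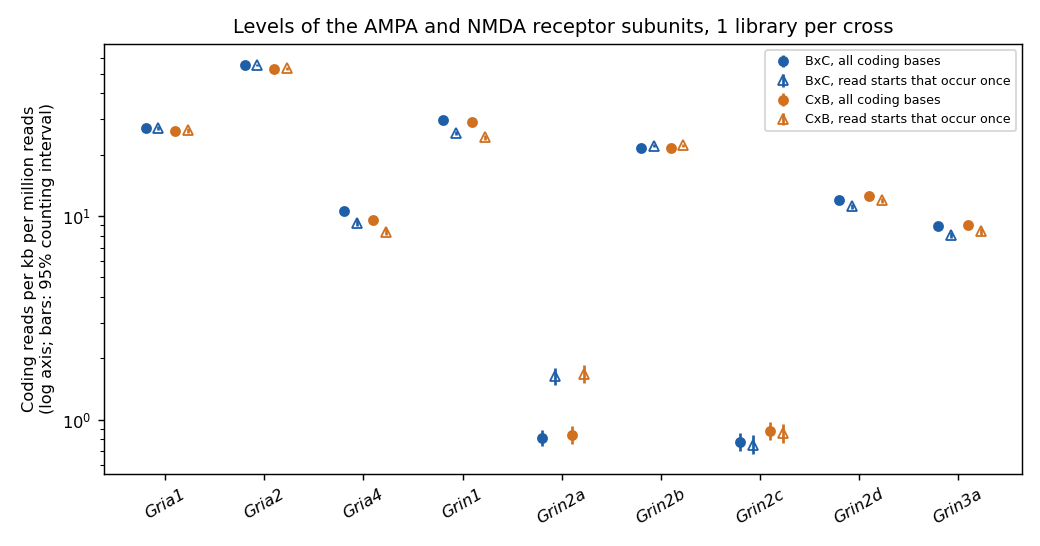
Coding level of each subunit in RPKM on a log axis, with 95% counting intervals; filled points use all coding bases and open triangles only read starts whose 36 bases occur once in the genome. Grin2a roughly doubles with the second measure, from 0.814 to 1.64 in BxC and from 0.843 to 1.68 in CxB. Grin1 lies above Gria1 by all coding bases and below it by the second measure, in both libraries.

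The reads of Grin2a were spread unevenly over its exons. Exons 1 to 4, of 1315 bases in all, held 542 reads in BxC and 417 in CxB. Exons 5 to 11, of 1161 bases, held 67 and 100, and the last 3 exons, of 2344 bases, held 18 and 17. The bases of those last exons have a second copy without introns at chr8:59431625-59433968, where 0 genes are annotated, and all 2167 read starts of 36 bases that Grin2a shares with another place were found there. The copy itself held 10 reads in BxC and 11 in CxB. By their methods for discovery the authors kept uniquely aligned reads, but which of their alignments was deposited is not stated. The part of the copy in these counts was not tested.

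Of the 3972 coding read starts of Grin2a, 2047 were repeated in this way and held 4 unsplit reads in each library. The other 1925 held 406 and 355 reads, which gives a level of 1.64 (1.48 to 1.80) in BxC and 1.68 (1.51 to 1.87) in CxB. These starts lie mostly in exons 3 to 11, since exons 1 and 2 hold no coding bases, and so include the denser exons 3 and 4. On this measure Grin2a was above Grin2c, by 2.17 times (1.87 to 2.51) in BxC and 1.96 times (1.68 to 2.29) in CxB. Grin2b was 13.6 times Grin2a (12.3 to 15.0) in BxC and 13.2 times (11.9 to 14.7) in CxB, where all coding bases gave 26.6 and 25.7 times. Exons 5 to 11 of Grin2a alone ran from 0.082 to 0.608 RPKM in BxC and from 0.340 to 1.09 in CxB. Grin2c stood at 0.755 and 0.858 at its starts that occur once. In BxC the place of Grin2a above Grin2c thus rested on exons 3 and 4. In CxB it rested mostly on them too, since of exons 5 to 11 only exon 5, with 18 reads, stood above Grin2c. At least 97.9% of the coding starts of each other member occurred once.

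Between the libraries none of the members reached a 1.5-fold difference. Of the 9 members 0 passed it, against 169 of 15427 genes with at least 100 reads in each library, which is 1.1%. The log2 ratio of CxB over BxC, from RPM over all exons, had a median of -0.04 over the members and -0.00 over all genes. Over coding exons the medians turned, to -0.002 over the members and -0.027 over all genes. Gria2 had 292 RPM in BxC and 278 in CxB, a log2 ratio of -0.07 (-0.09 to -0.05). Grin2c had the ratio farthest from 0, at 0.14 (-0.06 to 0.33), from 450 reads in BxC and 421 in CxB, and 36.2% of all genes lay farther out. Over all exons the intervals of 5 members lay below 0 and those of 4 held it. Over coding bases those of 3 lay below 0, 1 above and 5 held it, and Grin2d turned from -0.06 (-0.09 to -0.02) to 0.06 (0.01 to 0.11). The share of all genes with intervals off 0 is not given here, so these counts do not set the members apart. The intervals hold no spread between animals.

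**Figure D2:**
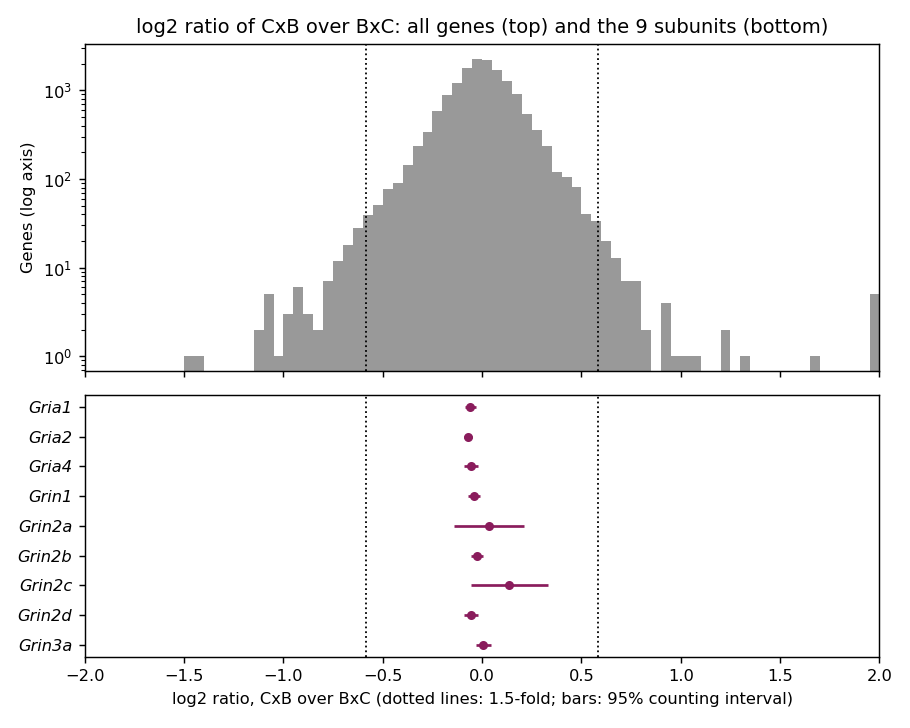
The upper panel counts genes by their log2 ratio of CxB over BxC, on a log axis and with ratios beyond 2 in the outer bin; the lower panel gives each subunit with its 95% counting interval. All 9 subunits lie between the dotted lines at 1.5-fold.

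The lists of related genes gave the same count. There were 50 other genes, of glutamate receptors, their auxiliary and scaffold proteins, vesicular transporters and the ADAR family. Of these, 0 were higher and 0 lower by 1.5-fold, with a median log2 ratio of 0.00 and a range of -0.45 to 0.36. Among kainate and delta subunits Grik5 was highest, at 54.3 RPKM in each library, and Grik4 lowest, at 4.44 and 4.56. Among metabotropic receptors Grm5 stood at 17.47 and 19.09 and Grm8 at 2.49 and 2.44. Of the AMPA receptor auxiliary subunits, Cnih2, which aids the export of AMPA receptors, stood at 149 and 150 RPKM, above every member, and Cacng5 at 4.16 and 3.8.

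The scaffold gene Dlg4, which encodes PSD-95, stood at 109 RPKM in BxC and 104 in CxB, and Dlg1 was lowest of its list at 4.57 and 4.23. Among vesicular glutamate transporters Slc17a7 stood at 20.4 and 16.0, Slc17a6 at 19.1 and 17.2 and Slc17a8 at 0.675 and 0.814. In the ADAR family, Adar was highest at 21.1 and 20.7 and Adarb2 lowest at 5.81 and 4.99.

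The flip share of the AMPA genes depended on which reads were counted. By the reads over the junctions of flip and flop with the upstream and the downstream exon, flip made up 34.6% of flip plus flop in Gria1 in BxC (Clopper-Pearson 27.8 to 41.8, 191 reads) and 32.8% in CxB (26.1 to 40, 186 reads). In Gria2 it made up 37.6% (30.5 to 45.1, 181 reads) and 35.6% (28.6 to 43.1, 177 reads). In Gria4 it made up 29.8% (17.3 to 44.9, 47 reads) and 28.6% (13.2 to 48.7, 28 reads). By these reads the libraries differed by less than 2 percentage points in each gene.

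Most of these reads crossed the junction to the downstream exon. In Gria1 the junction from flop to the downstream exon held 115 reads in BxC and 121 in CxB, while the junction from the upstream exon to flop held 10 and 4. A transcript with flop has both junctions, so their counts would be alike if each junction were read equally well. The upstream junction alone gave Gria1 a flip share of 63% in BxC (42.4 to 80.6, 27 reads) and 81.0% in CxB (58.1 to 94.6, 21 reads).

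Unsplit reads inside the exons, per start whose 36 bases occur once in the genome, put flip above flop in all 3 genes. The share was 72.8% (66.6 to 78.4) in BxC and 72.3% (64.4 to 79.2) in CxB for Gria1, 63.7% (58.5 to 68.7) and 66.7% (60.6 to 72.3) for Gria2, and 74.9% (62.2 to 85.0) and 70.9% (54.4 to 84.1) for Gria4. The intervals of this measure did not overlap those of the junction reads in any of the 3 genes. Which exon prevailed cannot be told from these libraries, since the direction turned with the reads counted.

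**Figure D3:**
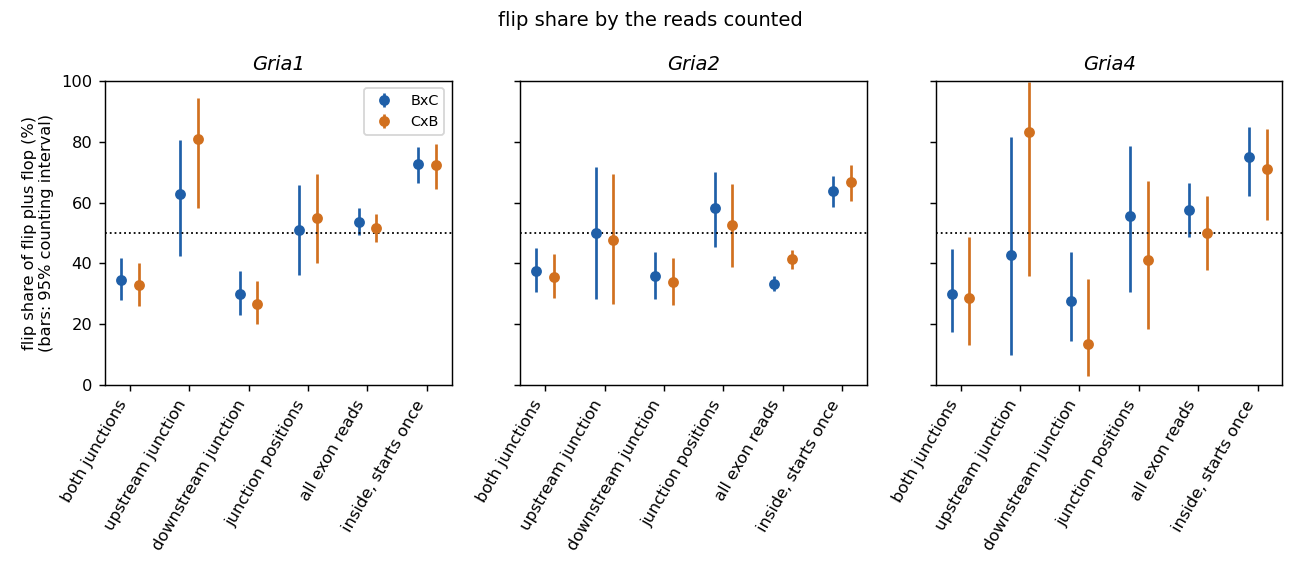
Share of flip in flip plus flop for the 3 AMPA genes by 6 ways of counting, with 95% counting intervals and a dotted line at 50%. Junction reads together lie below the line and unsplit reads at starts that occur once lie above it, in both libraries.

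Some of these exons share sequence within the family. In Gria2 25 of the 80 read starts of flip and 21 of those of flop were identical to another gene of the families, and in Gria4 20 and 15 were. In Gria1 5 starts of flip and 0 of flop were. Each junction has 27 windows of read length. Over the junction from flop to the downstream exon, 27 of them in Gria1, 9 in Gria2 and 10 in Gria4 lay within 2 differing bases of another family gene. Over the junction from flip to the downstream exon it was 16 in Gria1 and 0 in Gria2 and Gria4, and over the upstream junctions 3 for Gria4 flop and 0 for all others. The part of shared sequence in the shares was not tested.

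Gria2 also held reads that joined flop directly to flip, which are not in the shares above, 80 in BxC at 11 positions and 38 in CxB at 13, where Gria1 and Gria4 had 0 in both libraries. The joint is shown with flop in capitals.
Gria2 flop joined to flip: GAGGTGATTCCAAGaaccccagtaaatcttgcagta
The annotation holds this joint only with a flip exon that is 1 base shorter, in Gria2-203. A transcript with this joint can also give reads from the upstream exon to flop and from flip to the downstream exon. Those junctions are in the Gria2 shares, with 11 and 57 reads in BxC and 12 and 52 in CxB. The Gria2 shares are thus not a clean split between flip and flop transcripts. Unsplit reads that ran over the 3′ edge of Gria2 flop into the intron were 621 in BxC and 299 in CxB, and the 3 most frequent starts held 61.5% and 54.2% of them. At the other edges of flip and flop in the 3 genes these reads ranged from 0 to 91. In Gria4, reads that skipped both exons were 7 in BxC and 12 in CxB over 2 unannotated junctions. The junction between the neighbouring exons held 5 and 1 of them, and a junction that also skips the next exon held 2 and 11.

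In Grin1 each cassette was found both included and left out. N1, the cassette in the amino-terminal domain, was included in 52.0% (39.0 to 64.8) in BxC and 45.0% (31.4 to 59.0) in CxB, as the mean of its inclusion junctions over that mean plus the skipping junction. The junction into N1 held 37 and 34 reads, the junction out of it 28 and 15, and the skipping junction 30 in each library. C1, which carries an endoplasmic reticulum retention signal, was included in 50% in BxC (38.1 to 61.9) and 50% in CxB (38.5 to 61.5). Its junction from the upstream exon held 55 and 65 reads, but its junction to the last exon only 19 and 13, against 37 and 39 that skipped it. By reads per kb over those of the neighbouring exon C1 stood instead at 94.1% in BxC and 91.4% in CxB; the cause was not tested.

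The nearer acceptor, which gives C2, was used in 42.9% of junction reads in BxC (29.7 to 56.8, 24 of 56) and 55.8% in CxB (41.3 to 69.5, 29 of 52). The intervals overlapped. Of the 6 flip and cassette shares by junction reads, 1 (C2) differed by at least 10 percentage points between the libraries, at 12.9. Of 4671 annotated cassette exons with at least 20 junction reads in each library, 11.5% differed by that much, and of the 1261 with an inclusion share of 10% to 90% it was 36.1%. C2 is a choice of acceptor and not such an exon, so these shares are only a guide. By distinct positions C2 was 47.2% in BxC and 48.3% in CxB, which is under 10 points apart. Junction reads with at least 8 bases on each side gave 50% and 64.9%, which is over 10 points apart. Some flip shares also lay over 10 points apart by other counts. By distinct positions Gria4 flip was 55.6% and 41.2%. By the upstream junction Gria1 flip was 63% and 81.0%, and Gria4 flip 42.9% and 83.3% from 7 and 6 reads.

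Grin3a has an optional insert of 60 bases. The junction with the insert held 9 reads in BxC and none (0) in CxB. The junction without it held 16 and 7. The share with the insert was 36% in BxC (Clopper-Pearson 18.0 to 57.5, 9 of 25 reads) and 0% in CxB (0 to 41.0, 0 of 7 reads), and these intervals overlapped.

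Read density differed between the exons of a gene more than between the libraries. The highest coding exon of Gria1 was 7.23 times the lowest in BxC, that of Grin1 8.79 times and that of Grin2b 13.7 times, while in Grin3a it was 2.02 times. In Grin2b exon 14 stood at 62.4 RPKM in BxC and 63.2 in CxB, next to exon 13 at 4.56 and 5.07. Across the 9 to 21 coding exons of a member, the Spearman correlation of the libraries ran from 0.776 to 0.986, as a description over exons that share length and base composition. In Grin2a exon 4 stood at 3.94 and 3.35 RPKM, while exon 5 stood at 0.207 and 1.09 from 4 and 18 reads.

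**Figure D4:**
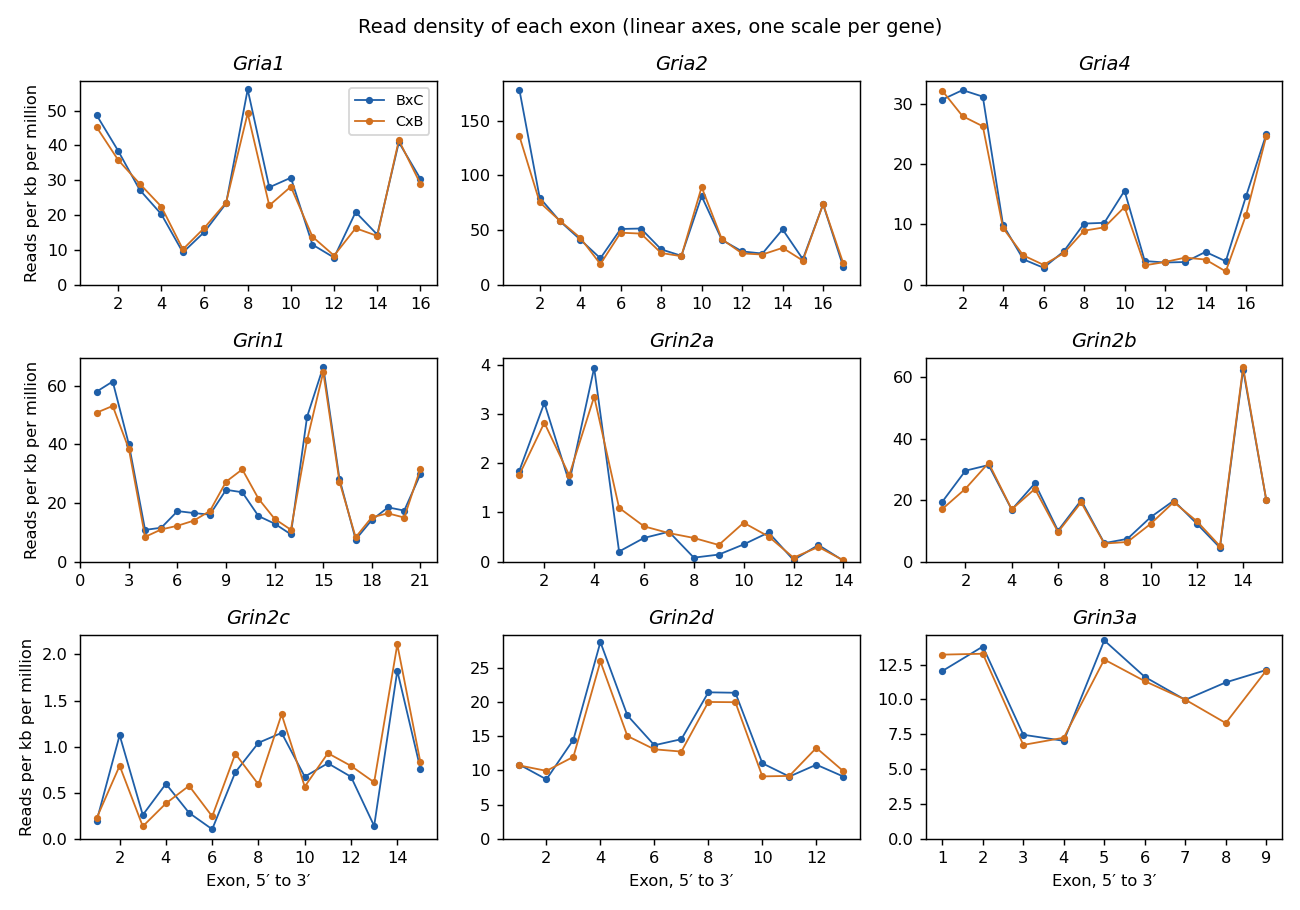
RPKM of each exon of 1 annotated transcript per subunit, from 5′ to 3′, with a linear axis for each gene. The profiles of the libraries follow each other, and Grin2a drops after exon 4, from 3.94 to 0.207 in BxC and from 3.35 to 1.09 in CxB.

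Read density per kb was lower in introns than in coding exons in every member. Coding density was 5.86 to 63 times that of the introns, lowest in Grin2c in BxC and highest in Grin3a in BxC. The introns of Gria2 stood at 1.72 RPKM in BxC and 1.41 in CxB, and those of Grin2b at 0.358 and 0.385. Of 156 annotated junctions of the members, 123 had reads in both libraries.

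Grin2b held many reads past its annotated 3′ end, at chr6:135679844 on the minus strand. The 17 kb after that end held 39616 reads in BxC and 38705 in CxB, which is 1.87 and 2.19 times the reads over all annotated exons. Every kb among them held at least 1010 reads in BxC and 1116 in CxB, and the density was 18.1 and 20.8 RPKM, near that of the coding bases. Kb 17 held 2276 and 2133 reads and kb 18 only 22 and 25, with 0 other genes annotated there.

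Grin2a also held reads past its end, at a lower level and less evenly, with 23 in BxC and 44 in CxB in kb 4. Past its annotated end, kb 7 held 282 reads in BxC and 226 in CxB, kb 10 held 89 and 102, and kb 11 held 9 and 10. In the other members with a window of 5 kb free of genes, the density past the end was 7.67% and 6.62% of that of the last exon in Gria2, 1.44% and 1.73% in Gria1, and 0.110% and 0.0876% in Gria4. Levels over the annotated exons leave these reads out.

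**Figure D5:**
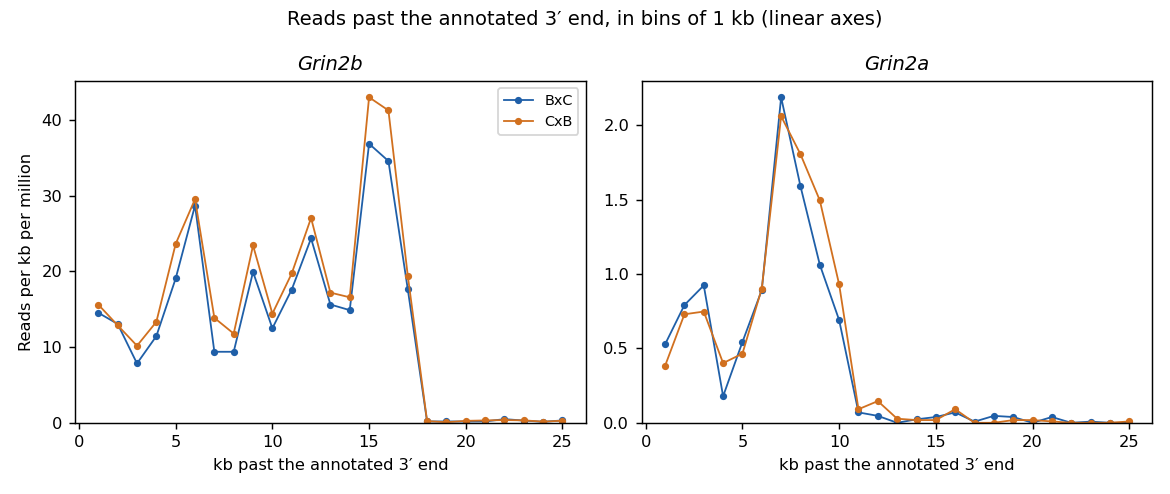
RPKM in bins of 1 kb past the annotated 3′ end of Grin2b and Grin2a, on linear axes that differ between the panels. Grin2b keeps a density of 7.83 to 36.8 in BxC over 17 kb and then falls to 0.171; Grin2a falls after 10 kb.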

How the data were processed

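The members and gene lists were chosen with earlier results of these data known. Per the paper, the authors made poly(A)+ libraries from unpooled brains, with dUTP to keep the strand, aligned reads with Novoalign, converted alignments to mm9 and kept unique ones. The deposited alignments give a whole-number count of reads on each line, without normalization. That this column counts identical reads was inferred from its values. Summed, it gives more aligned reads in each library than the average yield per library that the paper reports. The cause was not tested. Of the reads over each member 33.0% to 46.5% lay on the strand of the gene, so both strands were used in the main counts.

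Reads were summed over GENCODE vM1 exons (mm9) with Python 3.11.15, NumPy 2.4.6 and SciPy 1.17.1 and divided by kb and by the library total. Shares carry Clopper-Pearson intervals and levels Poisson intervals at 95%. These reflect counting alone and take reads as independent. No test was run, as each cross has 1 library. Flip was named by serine and flop by asparagine before E-any-G in the translation; the design had named EQG, which Gria4 flip lacks. Occurrences of 36 bases were counted over the genome. Named genes were the members and, of each list of related genes, the highest and lowest by the level summed over both libraries; Slc17a6 and the single markers were named after their values were seen. Counting was tested on simulated data.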

Additional observations from a re-analysis of the deposited data

How the results depend on the processing

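No paired analysis was possible because each cross has 1 library. None of the 9 members passed 1.5-fold under the alternatives run, of which a minimum of 500 reads left only 7 (without Grin2a and Grin2c). The median member level, 16.6 RPKM in BxC and 16.0 in CxB over all exons, became 12 and 12.5 over coding exons, 11.2 and 11.9 at coding starts that occur once (added after seeing the data), 13.6 and 13.7 with distinct positions, and 6.62 and 6.24 on the sense strand. Genes past 1.5-fold numbered 169, and 23 with distinct positions, 95 on the sense strand, 936 and 32 with a minimum of 20 and 500 reads, and 21 at a fold of 2. Cassette exons past 10 points numbered 535, and 207 with 50 junction reads. The flip share (BxC, then CxB) of Gria1 was 53.8% and 51.7% by all exon reads, 51.1% and 55.1% by distinct positions, 72.8% and 72.3% at starts that occur once and 63% and 81.0% by the upstream junction. For Gria2 it was 33.3% (30.9 to 35.8) and 41.3% (38.1 to 44.5) by all exon reads. These hold 976 and 553 reads over flop, with the 621 and 299 that ran into the intron among them. Otherwise it was 58.2% and 52.6% by distinct positions, 63.7% and 66.7% at starts that occur once and 50% and 47.8% by the upstream junction. For Gria4 it was 57.7% and 50% by all exon reads, 74.9% and 70.9% at starts that occur once, 55.6% and 41.2% by distinct positions, and 42.9% and 83.3% by the upstream junction. By the downstream junction alone it was 29.9% and 26.7% in Gria1 and 35.8% and 33.8% in Gria2. In Gria4 that junction gave 27.5% (14.6 to 43.9, 40 reads) and 13.6% (2.91 to 34.9, 22 reads). By reads per kb over the neighbouring exon, Grin1 C1 gave 94.1% and 91.4%, and C2 183% and 237%, a ratio that is no share; the cause was not tested. With 28 to 191 junction reads per flip share and 1 library per cross, depth and the absence of replicates limit every splice comparison.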
